A study of Homo sapiens with 12 samples.

Results

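The genes described here are 9 genes of MHC class I antigen presentation: HLA-B, HLA-C, HLA-E, B2M, TAP1, TAP2, TAPBP, PSMB8 and PSMB9. They were taken by gene symbol from a ribosome profiling table of 15798 genes, and 9 of 9 were found in it. Ribosome profiling sequences the stretches of mRNA that a translating ribosome shields from nuclease. These ribosome footprints were sequenced beside input RNA, which was fragmented without ribosome protection. The cells were HCT116, a human colorectal carcinoma cell line, and the comparison asked which mRNAs change in abundance or in translation when the kinases MEK1/2 are inhibited. There were 4 groups of 3 libraries: input from cells given the solvent DMSO for 24 h, footprints from the same treatment, input from cells given 100 nM of the MEK1/2 inhibitor trametinib for 24 h, and footprints from that treatment. All groups came from a single cell line, were labelled as biological replicates, and were treated with cycloheximide, which arrests ribosomes on mRNA, shortly before lysis.

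MHC class I molecules carry short peptides from inside the cell to its surface, where cytotoxic T cells inspect them. The proteasome cuts proteins into peptides, and its inducible catalytic subunits PSMB8, PSMB9 and PSMB10 replace PSMB5, PSMB6 and PSMB7 in the immunoproteasome. The transporter TAP1-TAP2 moves peptides into the endoplasmic reticulum. There TAPBP (tapasin) holds the empty class I molecule at the transporter, a heavy chain such as HLA-B or HLA-C paired with the light chain B2M. Many of these genes are known targets of interferon signalling through IRF1 and the class I transactivator NLRC5.

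Input libraries held 2276693 to 2845568 counted reads and footprint libraries 10127477 to 19181588. The epithelial markers EPCAM, CDH1, KRT8, KRT18 and KRT19 were abundant, whereas 2 of the 10 epithelial markers, VIL1 and LGALS4, held at most 3 counts in every library. Of 8 epithelial markers tested, 4 were called higher in input and 5 in footprints, beside 14.8% and 24% of all tested genes. In both assays 0 were called lower, beside 17.3% and 24.7% of all tested genes, and the median log2 changes were 0.46 and 0.55. Changes ran from -0.66 (CLDN7) to 1.32 (CLDN3) in input and from -0.14 (CLDN7) to 1.06 (CDH1) in footprints. KRT18 and CLDN7 had negative changes in both assays that were not called. The part of the epithelial markers in the class I result was not tested. Of 11 genes that report ERK activity, among them DUSP6, SPRY4 and EGR1, 11 were called lower under trametinib in input and 11 in footprints. DMSO replicate 1 stood apart: the summed normalized count of these ERK genes was 18262 in its input against 9295 and 9637 in the other DMSO inputs, and 21875 in its footprints against 13313 and 10541. Without the replicate 1 library, 7 of 8 class I genes were still called higher in input and 8 of 8 in footprints. In these fits 1657 of 10442 tested genes were called higher in input and 3404 of 11857 in footprints. Immune cell markers, which would accompany class I mRNA from another cell type, summed to 4 to 6 counts in DMSO input, 9 to 17 in trametinib input, 23 to 96 in DMSO footprints and 74 to 167 in trametinib footprints. ITGAX held 1, 4 and 4 raw counts in DMSO input against 10, 5 and 10 after trametinib, and 71, 16 and 14 in DMSO footprints against 126, 82 and 53. CD68 held 0 raw counts in the DMSO inputs and 1, 3 and 2 in the trametinib inputs. PTPRC, the defining marker of leukocytes, was at 0 in the 6 trametinib libraries and held at most 1 count in the DMSO libraries. The part of these markers in the class I result was not tested. In 7 of the 11 immune markers in the table no DMSO input library held a read, and in 5 of 11 no trametinib input library did.

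Under trametinib HLA-B, HLA-C, HLA-E, B2M, TAP1, TAPBP and PSMB9 rose in input RNA and in ribosome footprints, and TAP2 rose in footprints, each relative to the other mRNAs of the same libraries. Ribosome density, the footprint signal relative to input, was not called changed for any of these 8, and PSMB8 had too few reads to test. Of the 8 genes with enough reads for a test, 7 were called higher in input, where 14.8% of all 10663 tested genes were called higher. In footprints 8 of 8 were called higher, beside 24% of 11941 tested genes. In ribosome density 0 of 8 were called in either direction, beside 0.292% of 12000 tested genes called higher and 1.23% called lower. The median log2 change of the 8 genes was 1.07 in input and 1.02 in footprints, whereas the median of all tested genes was -0.021 in input. A gene was called when its Benjamini-Hochberg adjusted p was under 0.05, in edgeR's quasi-likelihood test for input and footprints and in DESeq2's likelihood ratio test for ribosome density. The trametinib libraries did not overlap the DMSO libraries for 7 of 8 genes in input and for 8 of 8 in footprints, where 23.2% and 30.1% of all tested genes showed the same complete separation upwards. Scaling by library totals moved the median log2 footprint change of all genes by 0.187 and the numbers called from 2868 higher and 2945 lower to 4033 and 2075, and 8 of 8 class I genes were still called higher. As these are bulk libraries, a change in the share of cells that express a gene and a change in RNA per cell cannot be told apart.

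**Figure D1:**
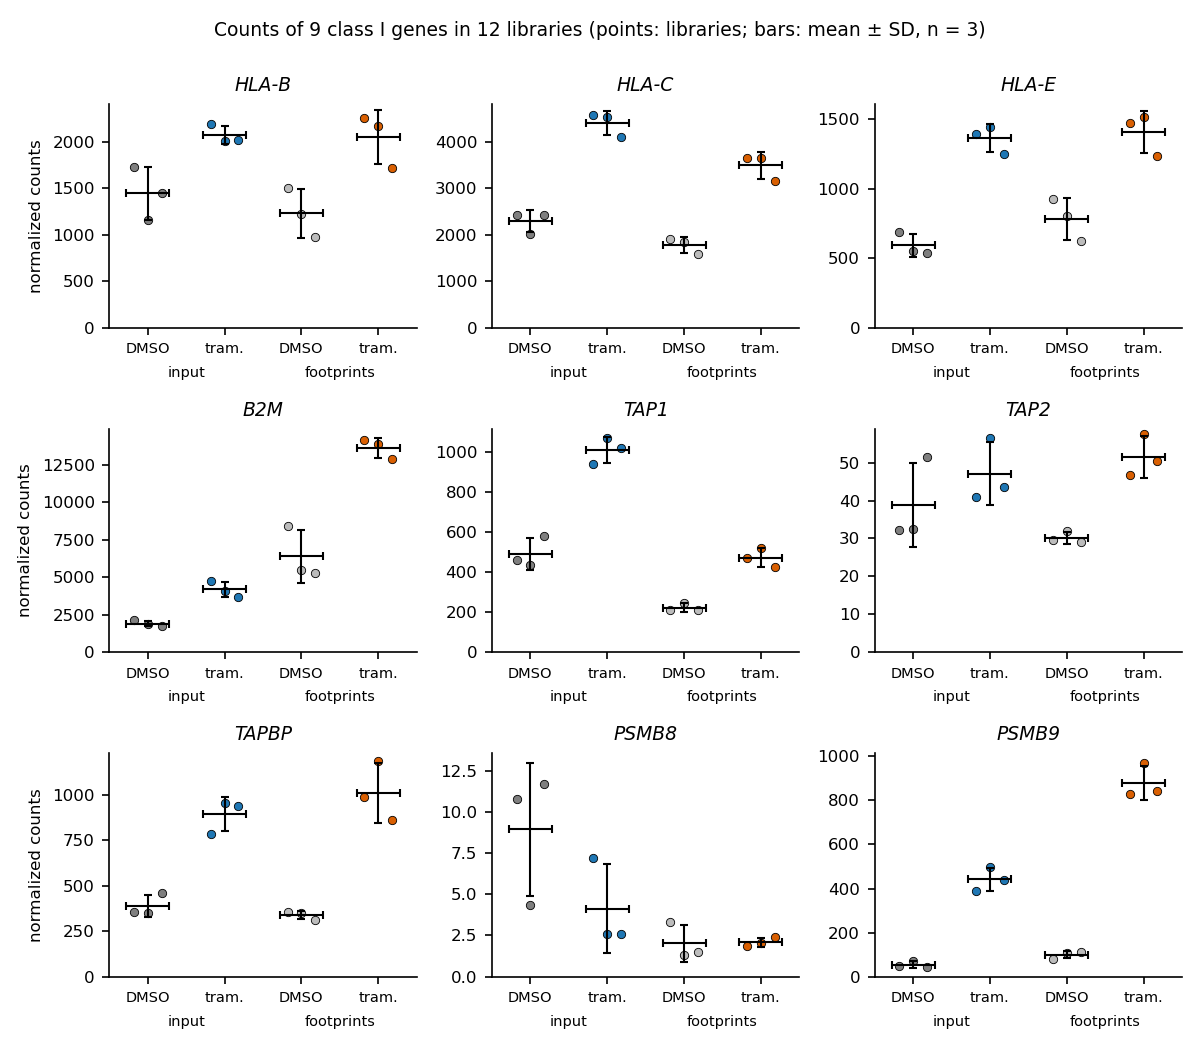
Normalized counts (reads divided by the library's size factor, linear axes from 0) of the 9 class I genes in the 12 libraries, with points for libraries and bars for the mean ± SD of 3. Trametinib libraries lie above DMSO libraries in both assays for HLA-B, HLA-C, HLA-E, B2M, TAP1, TAPBP and PSMB9, TAP2 separates in footprints only, and PSMB8 stays at or under 9 raw counts in every library.

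**Figure D2:**
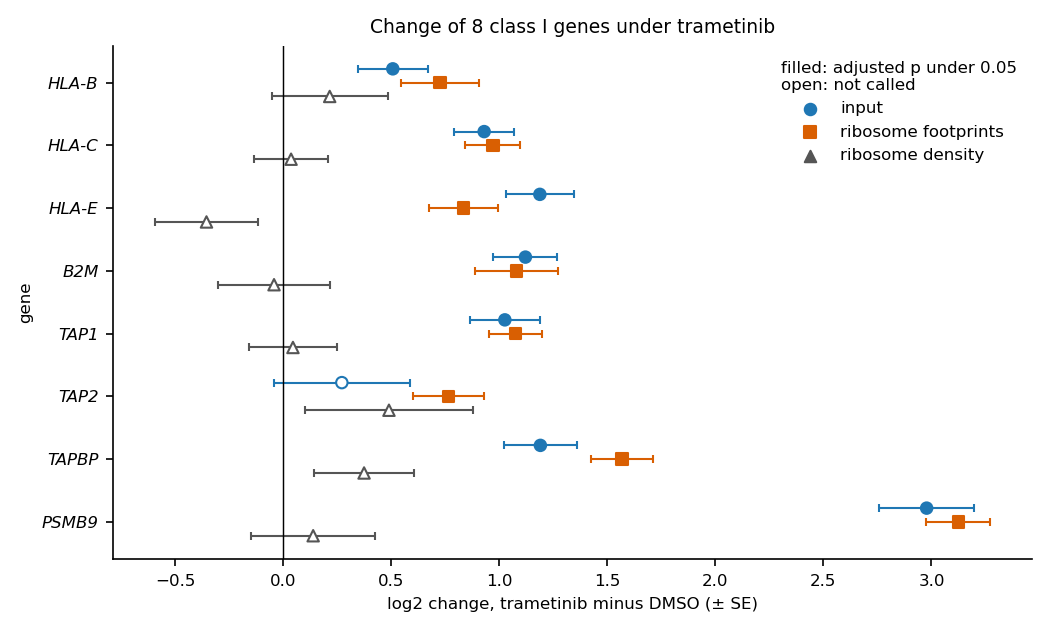
Log2 change (trametinib minus DMSO, ± SE) of the 8 tested class I genes in input (circles), ribosome footprints (squares) and ribosome density (triangles); filled symbols passed an adjusted p of 0.05 and open symbols did not. Input and footprint changes lie farthest apart for TAP2, TAPBP and HLA-E, and the 8 density changes, from -0.35 to 0.49, are all open.

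Before treatment the class I genes spanned a wide range of levels. Per kilobase of coding sequence, the mean level in DMSO input fell in the order B2M, HLA-C, HLA-B, HLA-E, TAPBP, TAP1, PSMB9, TAP2, PSMB8, from 5346 ± 525 normalized counts per kb for B2M to 10.8 ± 4.86 for PSMB8 (SD, n = 3). Neighbours in this order did not overlap between libraries, except TAPBP (289 ± 45.7) and TAP1 (219 ± 35.5), which overlapped. In trametinib input PSMB9 moved from the seventh to the fifth place, at 672 ± 81.4 normalized counts per kb, and overlapped TAPBP at 665 ± 68.8. In trametinib footprints PSMB9 reached 1339 ± 118 per kb and overlapped HLA-E at 1312 ± 139. Reads that matched more than one gene symbol were not counted by the authors, so the levels of the HLA genes, which are alike in sequence, rest on part of their reading frames and their order against the other genes is uncertain.

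The classical heavy chains HLA-B and HLA-C present peptides to T cells. HLA-C input held 2433, 2022 and 2421 normalized counts in the 3 DMSO libraries and 4570.2, 4539 and 4111 in the 3 trametinib libraries. Its footprints went from 1899.6, 1839 and 1581 to 3663, 3664 and 3162. The groups were far apart in both assays, with a log2 change of 0.93 ± 0.14 (SE; edgeR adjusted p = 0.000295) in input and 0.97 ± 0.13 (adjusted p = 0.000309) in footprints.

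HLA-B input was 1728, 1158 and 1447 normalized counts in DMSO and 2185, 2009.8 and 2021 in trametinib, and its footprints were 1499, 1218 and 971 against 2258, 2165 and 1719.7. The lowest trametinib library was above the highest DMSO library in each assay, but the DMSO libraries were spread widely. The log2 change was 0.51 ± 0.16 in input (edgeR adjusted p = 0.0305) and 0.73 ± 0.18 in footprints (adjusted p = 0.00884). The input call was lost when DMSO replicate 2 or any one of the 3 trametinib inputs was left out, with adjusted p-values from 0.0809 to 0.111 and log2 changes from 0.36 to 0.53.

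HLA-E, a non-classical heavy chain that displays leader peptides of other class I chains to NK cell receptors, held 690.3, 555 and 536 normalized counts in DMSO input, and the trametinib inputs held 1398, 1446 and 1252. Its footprints held 925, 801 and 627 in DMSO and 1475, 1514 and 1238 in trametinib. It was called higher in input, by 1.19 ± 0.16 on the log2 scale (edgeR adjusted p = 9.84e-05), and in footprints, by 0.84 ± 0.16 (adjusted p = 0.00257). HLA-E was the member with the most negative difference between footprint and input change, a ribosome density change of -0.35 ± 0.24 that was not called (DESeq2 adjusted p = 0.885).

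B2M, the light chain shared by the class I molecules, went from 2116, 1858 and 1751 normalized counts in DMSO input to 4748, 4104 and 3715 in trametinib input. In footprints it went from 8422, 5516 and 5256 to 14159, 13858 and 12904. DMSO replicate 1 was the highest of its group in both assays, and the groups still did not overlap. The log2 change was 1.12 ± 0.15 in input (edgeR adjusted p = 0.000101) and 1.08 ± 0.19 in footprints (adjusted p = 0.00166).

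Both transporter subunits and tapasin were higher in footprints, and TAP1 and TAPBP also in input. TAP1 input held 459, 434 and 583 normalized counts in DMSO and 941, 1071 and 1021 in trametinib, a log2 change of 1.03 ± 0.16 (edgeR adjusted p = 0.000431). TAP1 footprints held 212, 248 and 210.5 against 472, 521 and 425, a change of 1.07 ± 0.12 (adjusted p = 0.000148). The 2 assays thus gave nearly the same size for TAP1.

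TAP2, the partner subunit, was read far less often. Its input libraries held 15, 15 and 22 raw counts in DMSO and 17, 22 and 17 in trametinib, which overlapped, and its log2 change of 0.27 ± 0.31 was not called (edgeR adjusted p = 0.543). Its footprint libraries held 80, 49 and 79 raw counts in DMSO and 152, 140 and 106 in trametinib, or 29.5, 31.9 and 29.1 against 46.7, 57.5 and 50.4 after normalization. These groups were apart, with a log2 change of 0.77 ± 0.16 (adjusted p = 0.00445). The input interval is wide at this depth, so a difference between the assays was not detectable: the TAP2 density change was 0.49 ± 0.39 (DESeq2 adjusted p = 0.950).

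TAPBP input held 358, 348 and 459 normalized counts in DMSO and 787, 955 and 938 in trametinib. Its footprints held 354, 350.5 and 313 in DMSO and 989, 1186 and 859.6 in trametinib. The log2 change was 1.19 ± 0.17 in input (edgeR adjusted p = 0.000189) and 1.57 ± 0.14 in footprints (adjusted p = 3.63e-05), and after PSMB9 the TAPBP footprint change was the largest among the 8 genes.

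PSMB9, the inducible β1 subunit of the immunoproteasome, changed most. Its input held 49.6, 71.3 and 44.5 normalized counts in DMSO and 389.9, 497 and 437 in trametinib. Its footprints held 82.1, 106 and 113 in DMSO and 828, 969 and 842 in trametinib. Every trametinib library was far above every DMSO library. The log2 change was 2.98 ± 0.22 in input (edgeR adjusted p = 6.49e-07), or 7.88-fold, and 3.12 ± 0.15 in footprints (adjusted p = 7.53e-07), or 8.72-fold. By size of increase PSMB9 ranked 43 of 10663 genes in input and 91 of 11941 in footprints.

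PSMB8, the inducible β5 subunit, was close to absent in both treatments. Its input libraries held 5, 2 and 5 raw counts after DMSO and 3, 1 and 1 after trametinib, and its footprint libraries 9, 2 and 4 against 6, 5 and 5. These counts were under the filter for testing, overlapped between treatments, and allow no statement on a change. PSMB10, the third inducible subunit and no member of the 9, held 32, 52 and 49 raw counts in DMSO input against 126, 147 and 122 under trametinib, and 166, 102 and 166 in DMSO footprints against 1216, 1145 and 756. It rose by 1.74 ± 0.22 on the log2 scale in input (edgeR adjusted p = 7.88e-05) and by 2.67 ± 0.14 in footprints (adjusted p = 1.55e-06). Its ribosome density change of 0.93 ± 0.28 missed the threshold (DESeq2 adjusted p = 0.0605). It passed with TMM scaling (0.97, adjusted p = 0.0431), with library totals (1.10, adjusted p = 0.0117) and with the replicate number as a block (0.90, adjusted p = 0.046). It also passed without DMSO input replicate 1 (1.13, adjusted p = 0.0075) and without both DMSO replicate 1 libraries (1.11, adjusted p = 0.0101). All other settings, edgeR and limma-trend among them, left it uncalled, with adjusted p up to 0.300 where no library was left out.

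The gene extents of PSMB9, PSMB8 and TAP1 overlap in the Gencode annotation of GRCh38. PSMB9 lies on chromosome 6 from 32844136 to 32859851 on the plus strand, TAP1 from 32845209 to 32853816 and PSMB8 from 32840717 to 32844679 on the minus strand. TAP2 lies beside them, from 32821833 to 32838739 on the minus strand. Only reads inside reading frames were counted, and whether strand was used is not given in the sources used here.

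Ribosome density was then described between input and footprint libraries of equal number, as log2 footprint CPM over input CPM of the same treatment and number. In DMSO, B2M was read by ribosomes more densely than most mRNAs, with 1.86, 1.39 and 1.37 in the 3 replicates and a mean of 1.54 ± 0.27 (SD, n = 3) above that of 97.6% of 5725 genes with at least 50 input counts in every library. TAP1 was at the other end, with -1.25, -0.98 and -1.68 and a mean of -1.31 ± 0.35, above that of 13.2% of genes. The median gene was at -0.11. HLA-E (0.22 ± 0.18), TAPBP (-0.36 ± 0.35), HLA-B (-0.41 ± 0.35) and HLA-C (-0.54 ± 0.26) lay between. Under trametinib B2M was at 1.71 ± 0.10 and TAP1 at -1.10 ± 0.15, with 96.9% and 14.1% of genes below. The places of both genes were thus nearly the same in both treatments.

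For the change in density, the DESeq2 likelihood ratio test of the interaction of assay and treatment called 0 of 8 class I genes, with 0 of 8 also at an unadjusted p under 0.05. edgeR's quasi-likelihood test and limma-trend called 0 of 8 as well. The estimates were 0.22 ± 0.27 for HLA-B, 0.04 ± 0.17 for HLA-C, -0.04 ± 0.26 for B2M and 0.05 ± 0.21 for TAP1 (log2, SE). For TAPBP the estimate was 0.37 ± 0.23 and for PSMB9 0.14 ± 0.29. These errors leave room for moderate changes: the 95% interval of the HLA-C density change ran from -0.30 to 0.38 and that of B2M from -0.55 to 0.46. A shift in translation that affected every mRNA alike would be removed by the scaling between libraries.

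**Figure D3:**
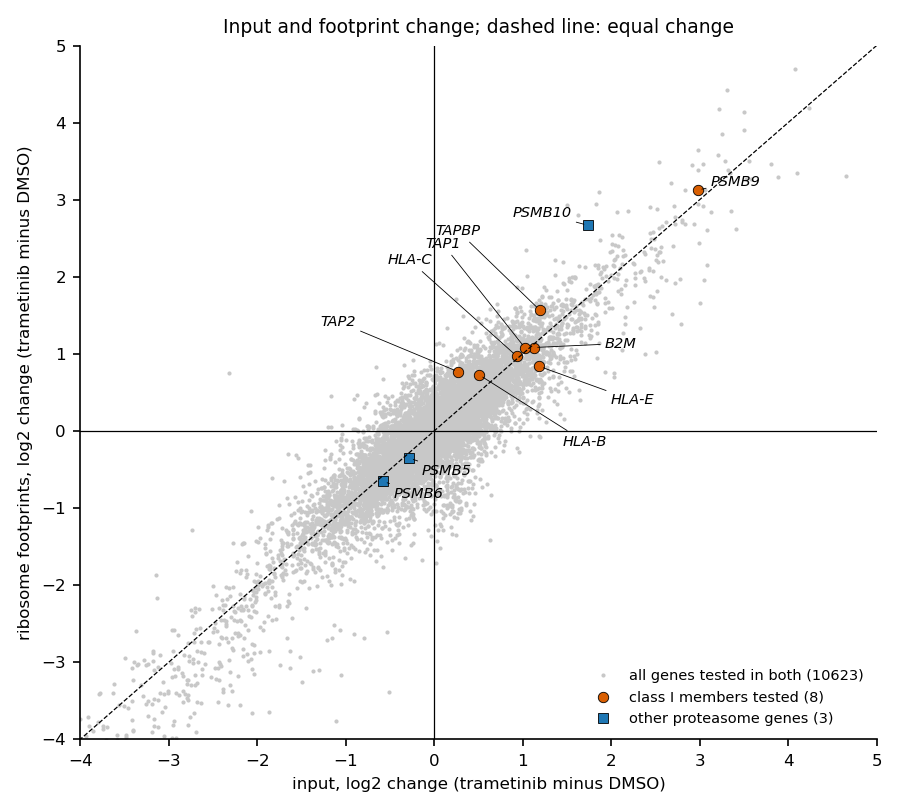
Log2 change (trametinib minus DMSO) in input (x axis) and ribosome footprints (y axis) of the 10623 genes tested in both, with class I genes as orange circles, 3 other proteasome genes as blue squares and equal change as a dashed line; 124 genes fall outside the axes, which run from -4 to 5. The 8 class I genes lie up and to the right along the dashed line with PSMB9 far out, PSMB10 sits above the line, and PSMB5 and PSMB6 lie in the lower left.

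Since 4 of the class I genes with a promoter in the reference carry the letters of an interferon-stimulated response element (ISRE), a motif bound by IRF factors, their promoters are printed here beside their changes. The 250 bases before each start in the RefSeq promoter table (GRCh38.p14) were searched on both strands for a pair of GAAA half-sites separated by 2 bases of any kind, and 3.02% of 35116 promoter windows held it. Of the 9 class I genes 8 had a window, and B2M, TAP1, TAP2 and TAPBP held the letters. The 150 bases before the start follow, in the direction of the gene, with the matched letters in capitals. They are chr15:44711367-44711516 on the plus strand for B2M, and chr6:32853705-32853854, chr6:32838740-32838889 and chr6:33314079-33314228 on the minus strand for TAP1, TAP2 and TAPBP.
B2M: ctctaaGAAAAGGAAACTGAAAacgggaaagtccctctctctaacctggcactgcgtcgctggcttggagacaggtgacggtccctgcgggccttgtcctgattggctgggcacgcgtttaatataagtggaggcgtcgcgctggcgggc
TAP1: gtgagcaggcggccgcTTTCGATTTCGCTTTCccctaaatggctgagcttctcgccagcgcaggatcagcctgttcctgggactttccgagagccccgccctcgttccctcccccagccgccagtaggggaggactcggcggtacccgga
TAP2: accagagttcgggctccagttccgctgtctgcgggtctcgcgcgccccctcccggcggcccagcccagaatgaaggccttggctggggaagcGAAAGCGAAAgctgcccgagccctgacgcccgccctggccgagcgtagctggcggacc
TAPBP: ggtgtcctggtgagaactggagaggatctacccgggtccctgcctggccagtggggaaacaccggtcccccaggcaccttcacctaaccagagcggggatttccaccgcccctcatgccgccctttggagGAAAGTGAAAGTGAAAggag
In B2M, TAP1 and TAPBP the motif occurs as 2 overlapping copies, and in TAP1 it reads on the opposite strand. The starts of TAP1 and PSMB9 are 488 bases apart and point away from each other, and the TAP1 copies end 354 bases from the PSMB9 start, outside the searched PSMB9 window, which held no match. PSMB8 held no match in its windows, and the letters were present in the PSMB10 and HLA-F windows. A match of letters does not show that a factor was bound in these cells.

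HLA-B and HLA-C, classical heavy chains that were both called higher, were set side by side for the same stretch. The difference between their changes was not tested. Their 150 bases before the start are chr6:31357180-31357329 and chr6:31272093-31272242, both on the minus strand. Capitals mark ATTGG and its reverse complement CCAAT, the CCAAT box that NF-Y binds, present in 32% of all windows.
HLA-B: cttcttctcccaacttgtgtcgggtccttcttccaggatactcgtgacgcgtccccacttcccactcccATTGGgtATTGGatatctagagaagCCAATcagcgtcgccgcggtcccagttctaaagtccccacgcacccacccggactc
HLA-C: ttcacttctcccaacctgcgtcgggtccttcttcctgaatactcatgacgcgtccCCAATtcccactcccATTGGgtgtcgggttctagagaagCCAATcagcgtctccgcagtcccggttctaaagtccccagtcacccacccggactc
Each stretch held 3 such boxes, and 87 of 150 positions were identical without gaps. Neither window held the ISRE letters. The stretches are those of the reference genome and were not read from HCT116.

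The other heavy chains and class I-like molecules split. HLA-F, a non-classical chain, rose by 1.23 ± 0.23 in input (edgeR adjusted p = 0.00161) and 1.32 ± 0.15 in footprints (adjusted p = 0.000166). Among the stress ligands of the NK cell receptor NKG2D, MICA fell by 0.77 and 0.72 in input and footprints and ULBP1 fell by 1.51 and 1.48. MICB and ULBP3 were called lower in footprints and not in input, and ULBP2 was called in neither. The MICB footprint call was lost without DMSO replicate 3 or trametinib replicate 1 or 2 (edgeR adjusted p = 0.0532, 0.0578 and 0.0569). That of ULBP3 was lost with library totals (-0.28, edgeR adjusted p = 0.135) and without trametinib replicate 1 or 3 (adjusted p = 0.0859 and 0.0971). The MICA call was lost in input without DMSO replicate 2 (-0.58, edgeR adjusted p = 0.0845) or trametinib replicate 1 or 2 (adjusted p = 0.0742 and 0.0815), and in footprints without trametinib replicate 3 (-0.61, adjusted p = 0.0562). Of 9 list genes tested in input 2 were called higher and 2 lower, where 14.8% of all tested genes were called higher and 17.3% lower. Of 11 tested in footprints 3 were higher and 4 lower, where 24% and 24.7% of all genes were.

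Among genes of peptide loading, folding and trimming, 4 of 9 tested were called higher in input and 8 of 10 in footprints, with 0 called lower in either. Of all tested genes, 14.8% and 24% were called higher and 17.3% and 24.7% lower. ERAP1, an aminopeptidase that trims peptides in the endoplasmic reticulum, rose by 1.91 ± 0.20 in input (edgeR adjusted p = 1.61e-05) and 2.10 ± 0.15 in footprints (adjusted p = 7.23e-06), from 34, 33 and 43 raw input counts to 130, 128 and 113. Its relative ERAP2 rose by 1.71 ± 0.38 and 1.46 ± 0.26. The chaperone CALR rose by less, 0.66 ± 0.16 and 0.71 ± 0.15. CANX, a chaperone of newly made heavy chains, changed by 0.46 ± 0.15 (edgeR adjusted p = 0.0282) and 0.44 ± 0.15 (adjusted p = 0.0353), and each call was lost when any single library other than DMSO replicate 1 was left out, with adjusted p from 0.0568 in input and from 0.0821 in footprints. The list median was 0.33 in input and 0.53 in footprints. TAPBPL, a tapasin relative, was called in footprints on few reads, 0, 2 and 0 raw counts in DMSO and 11, 20 and 15 in trametinib.

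Proteasome genes were called in both directions. The activator subunits PSME1 and PSME2, which form the interferon-inducible PA28 cap, rose by 1.15 ± 0.14 and 1.02 ± 0.16 in input (edgeR adjusted p = 4.45e-05 and 0.000351) and by 1.30 ± 0.11 and 0.90 ± 0.12 in footprints. PSMB6, the constitutive β1 subunit that PSMB9 replaces, fell by 0.58 in input and by 0.66 in footprints (adjusted p = 0.0268 and 0.000727). PSMB5 changed by -0.28 ± 0.15 in input, which was not called (adjusted p = 0.178), and fell by 0.35 in footprints (adjusted p = 0.0314). The PSMB6 input call was lost without DMSO replicate 2 or 3 or trametinib replicate 1 or 2 (edgeR adjusted p = 0.0575, 0.0546, 0.0744 and 0.149), and the PSMB5 footprint call with library totals (-0.17, adjusted p = 0.259) and without any single library other than DMSO replicate 1 (adjusted p up to 0.140). PSMB7, the subunit that PSMB10 replaces, changed by -0.10 ± 0.14 in input, which was not called (adjusted p = 0.650), and was called lower in footprints (-0.50 ± 0.13, adjusted p = 0.010), a call lost with library totals (-0.32, adjusted p = 0.0629) and without trametinib replicate 1 or 2 (adjusted p = 0.0532 and 0.0575). The assembly factor POMP fell by 1.24 in input and by 0.64 in footprints. Of the 9 genes of this list, 3 were called higher and 3 lower in input, beside 14.8% and 17.3% of all tested genes. In footprints 3 were higher and 5 lower, beside 24% and 24.7%.

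**Figure D4:**
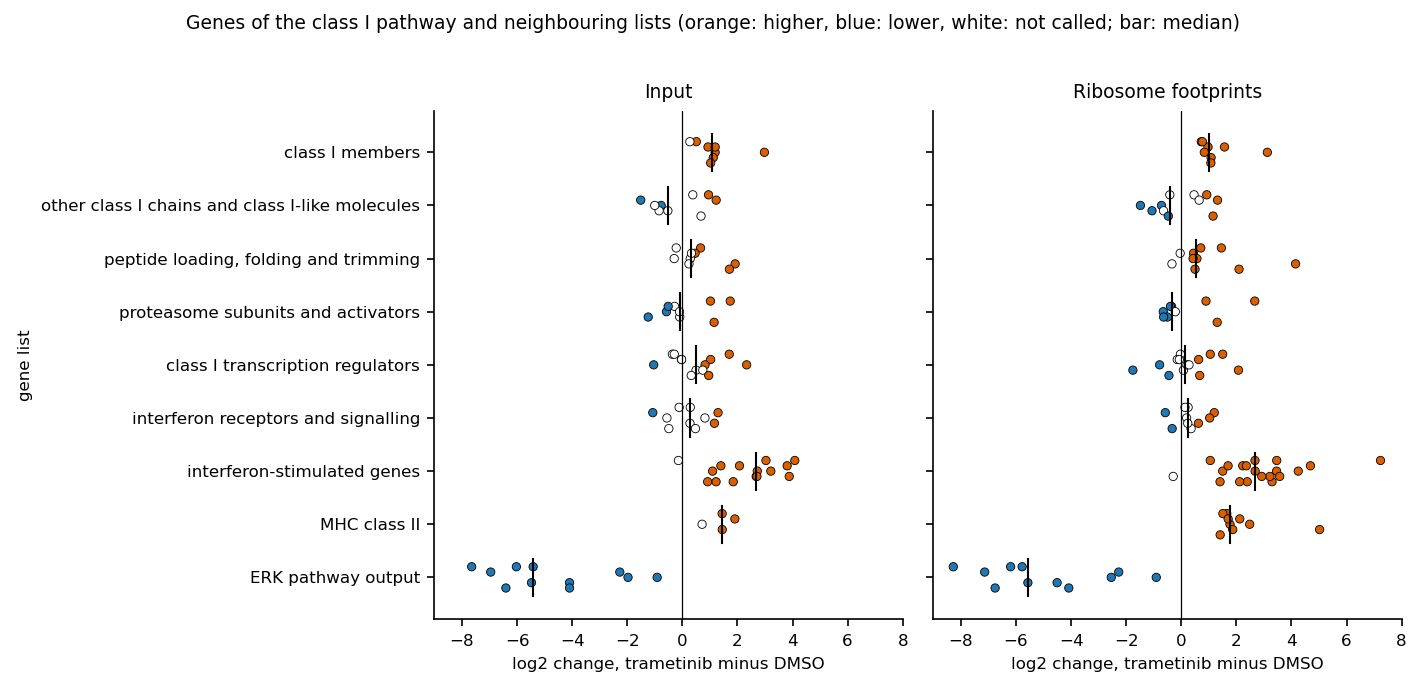
Log2 change (trametinib minus DMSO, x axes) of each tested gene in the class I genes and 8 other lists, for input (left) and footprints (right); orange points were called higher, blue points lower, white points were not called, and bars are list medians. The class I genes, interferon-stimulated genes and MHC class II genes lie to the right, the ERK output genes far to the left, and the proteasome genes on both sides.

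Of the regulators of class I transcription, 5 of 13 tested were called higher and 1 lower in input, beside 14.8% and 17.3% of all tested genes. In footprints 5 of 14 were higher and 3 lower, beside 24% and 24.7%. NLRC5, the class I transactivator, rose by 1.70 ± 0.25 in input (edgeR adjusted p = 0.000253), from 21, 39 and 37 raw counts to 85, 101 and 95, and by 1.50 ± 0.20 in footprints. IRF1 rose by 2.33 ± 0.23 and 2.07 ± 0.22 and RFX5, a subunit of the complex that recruits NLRC5, by 1.03 ± 0.17 and 0.63 ± 0.12. Other subunits of that complex differed: RFXANK rose by 0.82 ± 0.17 in input but was not called in footprints (0.08 ± 0.15, edgeR adjusted p = 0.684). RFXAP, not tested in input, fell by 0.79 in footprints (edgeR adjusted p = 0.0111). The NF-Y subunit NFYA was not called in input and fell by 0.45 in footprints (adjusted p = 0.0210), a call lost with library totals (-0.26, adjusted p = 0.126). EZH2, the histone methyltransferase of a repressive mark, fell by 1.04 and 1.76, and its input call was lost without DMSO replicate 2 or trametinib replicate 2 (-0.79 and -0.91, edgeR adjusted p = 0.0569 and 0.0572). CIITA, the class II transactivator, held at most 2 raw counts in any library.

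Of the interferon receptors and signalling genes, 2 of 10 were called higher and 1 lower in input and 3 higher and 2 lower in footprints, near the shares of all tested genes (14.8% and 17.3% in input, 24% and 24.7% in footprints). STAT2 rose by 1.29 ± 0.15 in input and was also called higher in footprints (edgeR adjusted p = 9.58e-05), whereas the receptor chain IFNGR2 fell by 1.07 in input and by 0.58 in footprints. The IFNGR2 footprint call was lost with library totals (-0.39, edgeR adjusted p = 0.114) and without DMSO replicate 1 (-0.38, adjusted p = 0.0512) or any one of the trametinib libraries (adjusted p up to 0.118). Interferon-stimulated genes were called higher in 14 of 15 cases in input and 19 of 20 in footprints, with a median log2 change of 2.68 in both assays. The largest input changes among them were those of GBP2 (4.08 ± 0.35), IFIT3 (3.88 ± 0.50) and IFIT1 (3.80 ± 0.31), against 2.98 for PSMB9. MHC class II genes were called higher in 3 of 4 cases in input and 9 of 9 in footprints, but at low levels: HLA-DRA, the class II α chain, held 10, 10 and 5 raw counts in DMSO input against 24, 18 and 19 under trametinib. In ribosome density 0 genes of these lists were called by DESeq2.

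The share of a library taken by the 9 class I genes is in effect a scaling by library totals. With that scaling the median log2 change of all tested genes was 0.187 in footprints and -0.006 in input, so the footprint share includes this shift. B2M weighs heavily in the footprint share, with 22862 of 36445 class I counts in DMSO replicate 1 and 46088 of 77771 in trametinib replicate 1. In input the share of the 9 class I genes rose from 0.122% ± 0.00925 in DMSO to 0.244% ± 0.0140 in trametinib (SD, n = 3), a 2.00-fold difference. In footprints it went from 0.162% ± 0.0329 to 0.389% ± 0.0297, or 2.39-fold. The groups did not overlap in either assay, and the two-sided exact permutation p was 0.1, the smallest that 3 against 3 libraries can give.

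**Figure D5:**
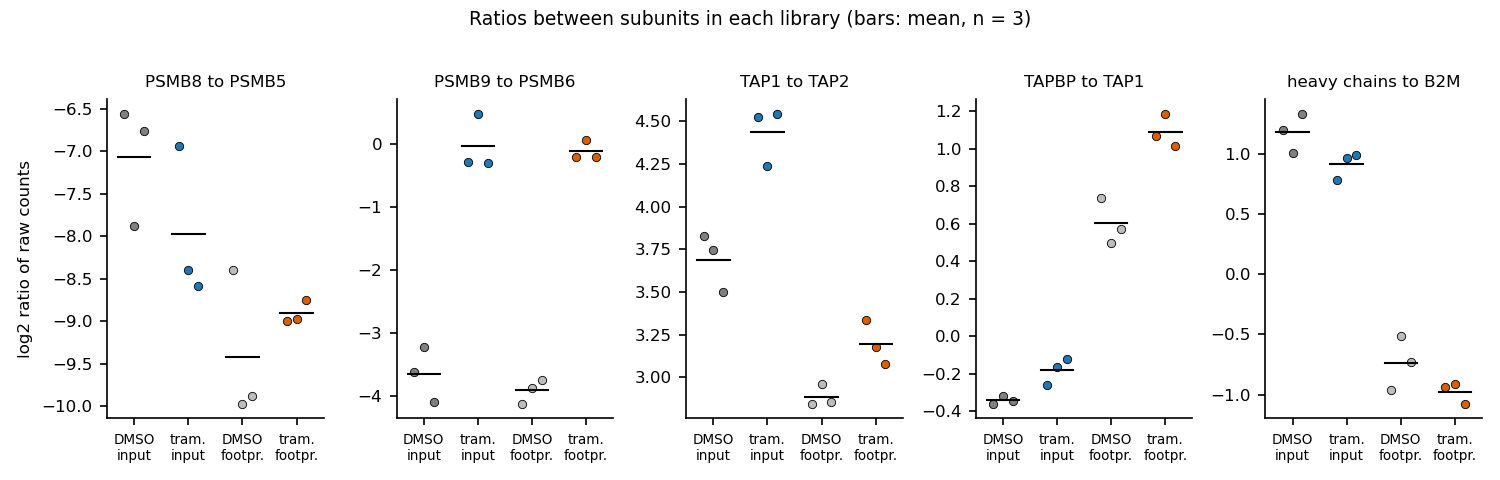
Log2 ratios of raw counts between subunits in each library (points) with group means (bars), for 5 ratios in input and footprints; each panel has its own y axis, which does not start at 0. The PSMB9 to PSMB6 ratio separates the treatments by over 3 log2 units in both assays, whereas the PSMB8 to PSMB5 ratio overlaps.

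Ratios between partner subunits were compared within each library, in a design where 3 against 3 libraries cannot reach a p under 0.1. The log2 ratio of PSMB9 to PSMB6 counts was -3.64 ± 0.44 in DMSO input and -0.04 ± 0.45 in trametinib input, a difference of 3.60. In footprints it was -3.91 ± 0.19 and -0.12 ± 0.16, a difference of 3.79. TAP1 over TAP2 differed by 0.75 in input and 0.31 in footprints, TAPBP over TAP1 by 0.16 and 0.49, and the summed heavy chains over B2M by -0.27 and -0.24. For these ratios the exact permutation p was 0.1, or 0.143 adjusted over 10 tests, except for heavy chains over B2M in footprints, where it was 0.3 (adjusted 0.333). PSMB8 over PSMB5 differed by -0.91 in input (exact permutation p = 0.2) and 0.51 in footprints (p = 0.4), on at most 9 PSMB8 counts a library.

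Finally, the 12 libraries were used to find the genes most like the class I group. After log2 normalized counts were centred within each assay, 8 of the 9 genes correlated with the mean of the other members at Pearson's r from 0.79 for TAP2 to 0.99 for HLA-C over 12 libraries, and PSMB8 at -0.34. The 12 points share the contrast between treatments, so these values describe likeness and are no test. Among 7662 other genes the profiles closest to the mean of the members were those of OS9 (r = 0.993), BMP1 (0.993), CDH3 (0.993), LGALS3BP (0.992) and PLPP1 (0.991). Their log2 input changes were 1.01, 1.19, 1.11, 1.35 and 1.63 in that order. OS9 is a lectin of endoplasmic reticulum quality control, BMP1 a secreted protease, CDH3 a cadherin and LGALS3BP a secreted galectin ligand.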

How the data were processed

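Ribosome footprints and input RNA of HCT116 cells were measured in 12 libraries. According to the study's methods, the authors removed adapters with FASTX, discarded reads aligning to rRNA and tRNA with Bowtie 1.2.2, mapped the rest to the basic Gencode transcripts of GRCh38 and counted reads of 25 to 35 nt within reading frames, keeping reads of 1 gene symbol. The deposited table of the authors holds these raw counts per gene and library. Its other 12 columns of values per library (size-factor normalized counts) were not used, nor were its columns of fold changes and adjusted p-values, made with DESeq2 1.46.0, and of gene labels.

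Groups and replicate numbers came from the labels. Input and footprint changes were tested with edgeR 4.0.16 (quasi-likelihood, TMM) for genes that reached 10 counts in 3 or more of the 6 libraries, run in R 4.3.3. The ribosome density change came from DESeq2 1.42.0, as a likelihood ratio test of the assay-by-treatment term with median-of-ratios scaling, for genes that reached 10 counts in 3 or more of 12 libraries, with independent filtering off. Tests were two-sided, p-values were Benjamini-Hochberg adjusted over all tested genes, and the threshold was 0.05. Fits were tested on simulated data. Normalized counts are counts divided by median-of-ratios size factors, and standard errors of edgeR changes are the change divided by the square root of F. Counts under the filter support no fold. Coding lengths are those of Gencode v44.

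The class I genes and the other lists were chosen with earlier results of these data known. Named genes were the 9 members, list genes called in at least 1 comparison or near 0 counts, the 3 interferon-stimulated genes with the largest called input change, PSMB5 and PSMB6, and the 5 genes of most similar profile. Some genes of the lists are not reported here by name. Across 7669 genes, same-numbered DMSO and trametinib footprint libraries deviated together from their group means (Pearson's r 0.117, 0.133 and 0.294, across genes, which are not independent replicates). The main tests used no pairing, and the replicate number entered only in alternative settings. Alternatives were limma 3.58.1, the other count tool, other scalings, no filter, replicate blocks and leaving out each library. Replicates were labelled biological, and whether dishes came from separate cultures or days is not given in the sources used here.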

Additional observations from a re-analysis of the deposited data

How the results depend on the processing

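Of the alternative values for the class I genes, 340 stayed on the same side of 0 and of the threshold, and 20 did not. The HLA-B input call was lost in 4 fits that left out 1 library, as given above. The other 16 were uncalled ribosome density changes near 0 that changed sign. With 1 library left out, the HLA-C change ran from -0.0428 to 0.111, B2M from -0.168 to 0.207, TAP1 from -0.098 to 0.122 and PSMB9 from -0.104 to 0.26. B2M was also 0.0033 with edgeR, 0.00326 with TMM scaling, 0.133 with library totals and 0.12 without both DMSO replicate 1 libraries, a setting chosen after seeing the data. The cause was not tested.

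Counts over all genes moved more. Input calls higher ranged from 925 to 1657 when 1 library was left out, against 1575, the low values following the loss of any trametinib input. Ribosome density calls higher, 35 in all libraries, were 6 with edgeR, 6 with limma-trend, 138 with library totals and 8 to 38 with 1 library left out. Calls lower, 148, were 87 with edgeR and 97 with limma-trend, and 110 to 177 with 1 library left out. With the replicate number as a block the density calls were 19 higher and 140 lower, with a block for each treatment and number 24 and 160, and in both 0 of 8 class I genes were called. With the number as a block, 7 of 8 class I genes were called higher in input and 8 of 8 in footprints, and this block changed no other class I call. Input and footprint libraries of 1 number deviated together at r = 0.816, 0.181 and 0.343 in DMSO and 0.141, 0.0803 and -0.122 in trametinib, and DMSO and trametinib inputs at 0.068, 0.0484 and 0.334. By the study's methods input and footprint RNA came from the same lysate, but no label says that equal numbers mark a lysate, and the correlation was above 0.1 for the 3 DMSO pairs and for 1 of the 3 trametinib pairs, so the block for equal numbers is given as an alternative. TAP2 and PSMB8 input counts limit what could be seen for them.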
